A study of Mus musculus with 12 samples.

Results

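The 47 genes described here encode the contractile machinery of striated muscle other than the myosin heavy chains: actins, troponins, tropomyosins and nebulins of the thin filament, myosin light chains, titin, myosin binding protein C and myomesins of the thick filament and M-line, Z-disc and desmin-associated proteins, the calcium handling apparatus of the sarcoplasmic reticulum and T-tubule, and the muscle creatine kinases and myoglobin. They were chosen by name and role, and all 47 were found among the 32498 named genes of the series. Of these, 44 reached a mean of 0.1 FPKM (reads per length of exon and per depth of the library, a level per length of transcript) and were tested among 16847 genes in all. Bulk RNA-seq was performed on the tongues of C57BL/6 mice, bought at 5 weeks of age. All mice carried the same exposure, 4-nitroquinoline-1-oxide (4NQO), a carcinogen that gives rise to oral tumors, at 100 µg/mL in the drinking water for 16 weeks. From week 4 until sacrifice they were gavaged 5 times a week with gallic acid (GA), a plant polyphenol, at 100 mg/kg or with vehicle alone. Each group held 6 libraries, taken as separate mice, and the comparison of GA with vehicle addressed how GA alters the transcriptome during oral carcinogenesis. The labels describe the material as tumor and the cells associated with it, there was no library from mice without 4NQO, and a sample of tongue can hold any proportion of muscle. In bulk samples, fewer muscle cells and less muscle RNA per cell cannot be told apart.

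The sarcomere shortens when myosin heads of the thick filament pull on actin of the thin filament. Calcium released from the sarcoplasmic reticulum through the ryanodine receptor binds troponin C, which moves tropomyosin off actin, and the SERCA pumps return the calcium afterwards. Most of these proteins have a fast and a slow or cardiac isoform encoded by separate genes, so that the isoforms of a muscle reflect its fibre types, and the tongue of the mouse is built almost wholly of fast fibres.

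Sequencing depth, recovered from the FPKM values, lay between 18038852 and 25193856 reads, and Spearman correlations between libraries of the same group lay between 0.929 and 0.955. Libraries stood apart in 3 respects. The members took 0.569% of the reads in vehicle 1 and 4.29% in vehicle 3, with the other libraries between these. Vehicle 3, vehicle 5 and GA 2 held lingual gland tissue, with the gastric-type lipase Lipf between 8134 and 26456 FPKM against at most 0.504 FPKM in the other 9 libraries. Reads of Y-linked genes were present in 4 vehicle libraries and in 1 GA library, so sex was unevenly distributed. Skeletal muscle was present in every library, as were epithelial keratins, whereas the 9 cardiac muscle markers summed to between 13.4 and 36.2 FPKM with vehicle and between 22.4 and 57.8 FPKM with GA. Of these, 4 (Nppa, Tnni3, Ryr2 and Bmp10) stayed below 1 FPKM in all 12 libraries, while Sbk2 reached 43.6, Nppb 16.3, Myl4 9.54, Myl7 8.49 and Tnnt2 2.14 FPKM, and their part in the levels of the cardiac-type members was not tested.

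The members were among the most abundant transcripts of the tongue and among the most uneven. On the FPKM scale the 5 highest means belonged to Acta1, Tnnt3, Atp2a1, Mylpf and Mb, at 1681, 931, 773, 744 and 712 FPKM. Over the 43 members whose lowest value exceeded 0.1 FPKM, the highest library exceeded the lowest by a median of 8.70-fold, and by more than 5-fold for 41 of them. The same median over 13657 genes of the whole table was 2.19-fold. The same libraries were at the extremes for most members, with 37 of the 44 lowest in vehicle 1, 31 highest in vehicle 3, and 38 lowest among the GA libraries in GA 6. The map of the members by library shows these libraries as columns of 1 colour, and shows a few members that depart from the columns.

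**Figure D1:**
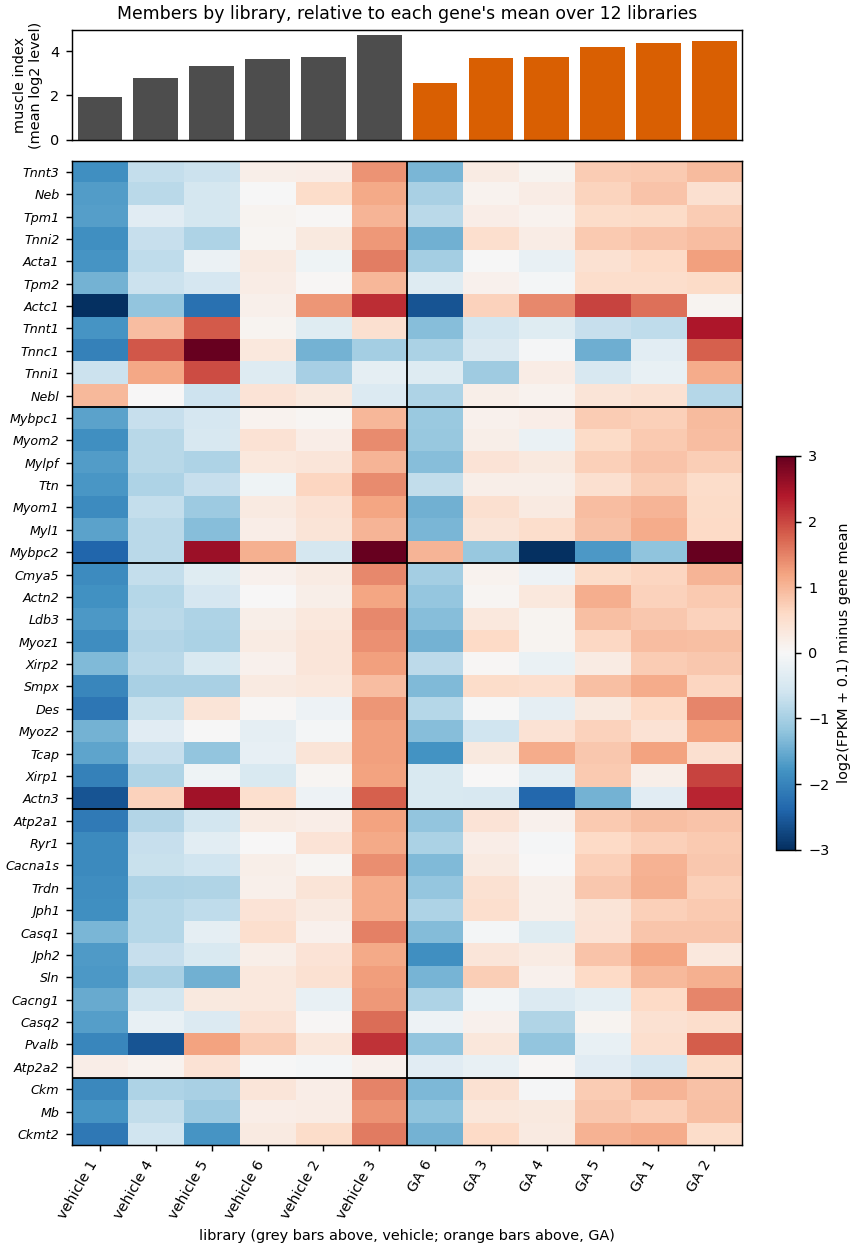
Level of each tested member in each library, as log2(FPKM + 0.1) minus the gene's mean over 12 libraries (red higher, blue lower), with libraries ordered within each group by the muscle index plotted above, the mean log2 level of 30 other muscle genes. Most of the 44 members follow the index, from vehicle 1 (index 1.94) to vehicle 3 (index 4.71), while Atp2a2, Nebl, Mybpc2, Actn3, Tnnt1, Tnnc1 and Tnni1 do not.

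No member differed between GA and vehicle by the criteria of the study, which were an adjusted p below 0.1 and a log2 fold change of 0.58 or more in either direction. The background was 0% of the 16847 genes tested with limma, and the smallest adjusted p of any gene, member or not, was 0.999. Nor did any of the 44 members reach an unadjusted p of 0.05 (0 members, against 2.2% of all genes), and the smallest p of a member was 0.137. The GA and vehicle ranges overlapped for every tested member, while 0.0594% of all genes had ranges that did not overlap.

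The direction of the mean difference was nevertheless shared. The mean log2 level was higher with GA for 37 members and lower for 7, and the median log2 fold change of the 44 was 0.47 against 0.01 over all genes, of which 51.4% were higher. A log2 fold change of 0.58 or more was reached by 14 members in the GA direction, against 4.36% of all genes, and by 2 members, Mybpc2 and Actn3, in the vehicle direction, against 4.18%. The members vary together over the libraries, so that these counts do not represent 44 separate observations. For 26 members, 5 of the 6 GA libraries lay above the vehicle median, the exception generally being GA 6. The median depended on single libraries, being 0.17 without vehicle 1 and 0.76 without vehicle 3.

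**Figure D2:**
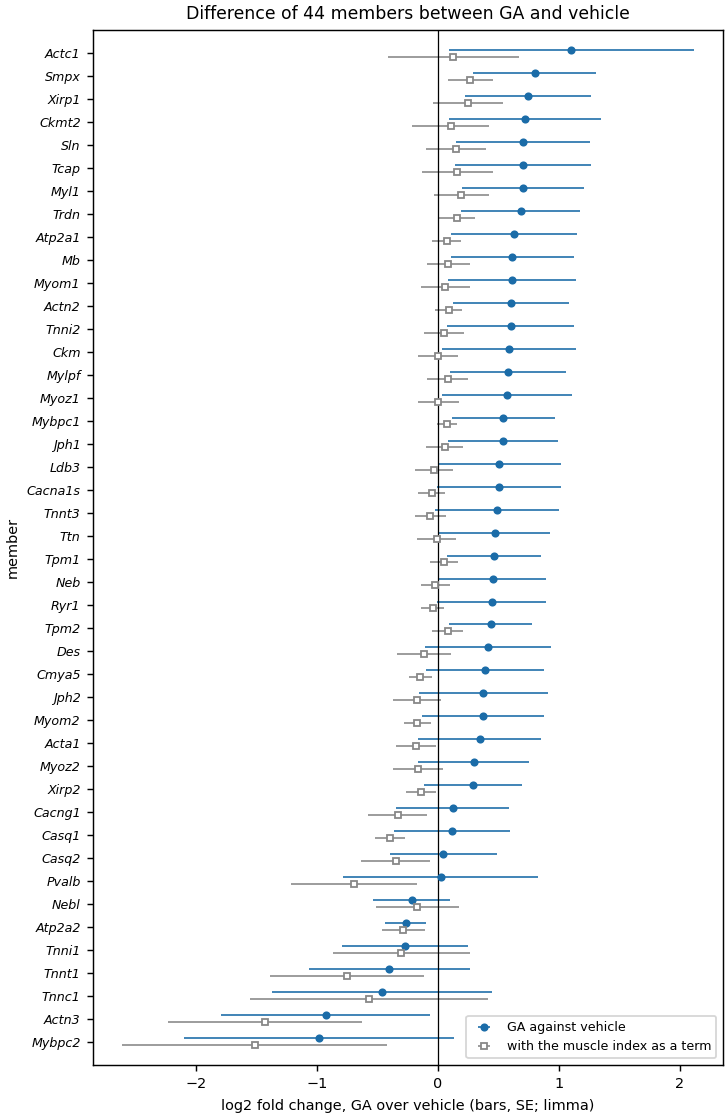
Log2 fold change of GA over vehicle with its standard error for the 44 tested members (filled circles), and the same after the muscle index was added to the model (open squares). The filled circles centre on 0.47 and the open squares on -0.03, and no member passed the adjusted threshold in either model.

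The promoter sequences of 5 members are given because these genes show the contrast that recurs below, between members that moved with the muscle content of the library and isoform partners that departed from it or ranged most widely. Acta1, Mybpc1 and Ckm moved with the muscle index, while Actc1 and Mybpc2, the partners of Acta1 and Mybpc1, ranged over 58.0-fold and 87.0-fold between libraries. RefSeq (GRCm38.p6) promoter windows matched 34 of the 47 members, and each sequence is the 250 bases before the RefSeq start site, on the strand of the gene. Acta1 lies at chr8:123894776-123895025 (minus strand), Actc1 at chr2:114052876-114053125 (minus), Mybpc1 at chr10:88605153-88605402 (minus), Mybpc2 at chr7:44524670-44524919 (minus) and Ckm at chr7:19410844-19411093 (plus). Capitals mark E-boxes (CANNTG, the core bound by MyoD-type factors) and CArG boxes (bound by SRF).
Acta1: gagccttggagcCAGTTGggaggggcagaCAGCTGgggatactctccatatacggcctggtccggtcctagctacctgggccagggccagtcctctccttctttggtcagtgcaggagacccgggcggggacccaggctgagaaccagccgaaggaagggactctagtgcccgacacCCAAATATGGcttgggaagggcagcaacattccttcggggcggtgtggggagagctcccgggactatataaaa
Actc1: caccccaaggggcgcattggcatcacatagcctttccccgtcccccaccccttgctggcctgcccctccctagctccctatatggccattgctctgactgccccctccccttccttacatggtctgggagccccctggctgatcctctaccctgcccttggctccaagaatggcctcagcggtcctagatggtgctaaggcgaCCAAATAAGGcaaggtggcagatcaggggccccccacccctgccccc
Mybpc1: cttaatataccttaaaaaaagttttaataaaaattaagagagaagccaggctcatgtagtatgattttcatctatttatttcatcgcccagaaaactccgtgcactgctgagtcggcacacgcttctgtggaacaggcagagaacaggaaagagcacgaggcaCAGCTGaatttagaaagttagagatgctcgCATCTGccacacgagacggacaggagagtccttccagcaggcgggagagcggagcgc
Mybpc2: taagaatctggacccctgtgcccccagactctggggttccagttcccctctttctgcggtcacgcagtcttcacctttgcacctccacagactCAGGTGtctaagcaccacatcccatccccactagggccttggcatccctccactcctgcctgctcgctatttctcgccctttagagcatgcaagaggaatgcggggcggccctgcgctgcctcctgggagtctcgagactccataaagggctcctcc
Ckm: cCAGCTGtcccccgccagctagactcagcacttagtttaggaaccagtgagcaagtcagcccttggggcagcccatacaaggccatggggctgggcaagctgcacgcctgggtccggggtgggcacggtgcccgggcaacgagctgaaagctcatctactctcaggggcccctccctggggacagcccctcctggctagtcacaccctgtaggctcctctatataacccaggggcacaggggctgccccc

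Both actin promoters held a CArG box, and both lie in a set in which that motif was frequent. A CArG box was present in 15.9% of the 44 windows of the 34 members (some have several start sites) and in 1.47% of all 32851 windows of the same length. The E-box CAGCTG, which is contained in CANNTG, was present in 43.2% of the members' windows and in 13.0% of all, and the general CANNTG in 81.8% and 66.2%. A MEF2 motif was present in 11.4% against 2.92%, and the M-CAT motif CATTCC in 18.2% against 12.6%. Motifs were searched on both strands, and a match describes the sequence only. The Mybpc2 window held 1 E-box and no CArG box, and the Mybpc1 window held 2 E-boxes and no CArG box.

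Thin filament genes of the fast skeletal type were abundant in both groups and higher on average with GA. Acta1, the skeletal alpha-actin (chr8:123891769-123894751, GRCm38), had a lowest, median and highest level of 410, 1266 and 4053 FPKM with vehicle, and of 693, 1663 and 3281 FPKM with GA. Its log2 fold change was 0.34 (SE 0.51), and the ranges overlapped almost wholly. Tnnt3, the fast troponin T that anchors the troponin complex to tropomyosin, ranged over 217, 689.5 and 1980 FPKM with vehicle and 303, 1124 and 1499 FPKM with GA, a log2 fold change of 0.49 (SE 0.52). Tnni2, the fast inhibitory troponin I, behaved alike. Its levels were 135, 396 and 1188 FPKM with vehicle and 175, 749 and 914 FPKM with GA, with a log2 fold change of 0.60 (SE 0.52). Tnni2 and Tnnt3 lie 54425 bases apart on chromosome 7.

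Actc1, the cardiac alpha-actin that is also expressed in developing skeletal muscle, showed the largest mean difference of all members and an error as large. It ranged over 2.04, 19.5 and 118 FPKM with vehicle and over 4.11, 55.0 and 104 FPKM with GA, and the log2 fold change was 1.10 (SE 1.01). Low values occurred in vehicle 1, vehicle 5 and GA 6, and 5 of 6 GA libraries lay above the vehicle median. Acta1 and Actc1 share most of their coding sequence, so reads may be divided between them with uncertainty. Tropomyosins Tpm1 and Tpm2 and the thin filament ruler Neb (nebulin) had log2 fold changes of 0.46 (SE 0.39), 0.44 (SE 0.35) and 0.45 (SE 0.44). In all, 7 of the 11 tested thin filament genes were higher with GA and 4 lower, and none passed the test.

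The slow and cardiac troponins and the cardiac nebulin relative were scarce, and they were the thin filament genes that were lower on average with GA. Tnnt1, the slow troponin T, had levels of 0.481, 2.35 and 6.96 FPKM with vehicle and 0.725, 1.19 and 10.6 FPKM with GA. Tnni1, the slow troponin I, ranged from 0.138 to 1.85 FPKM and Tnnc1, the slow and cardiac troponin C, from 0 to 5.11 FPKM, with overlapping groups. All 3 were highest in the same libraries, since vehicle 4, vehicle 5 and GA 2 held the 3 highest values of Tnnt1, of Tnni1 and of Tnnc1. The neutrophil receptor Csf3r was also highest there, at 7.96, 16.1 and 4.42 FPKM against at most 0.989 FPKM elsewhere. So was the fibroblast collagen gene Col1a1, at 35.3, 78.4 and 27.1 FPKM against at most 20.8 FPKM elsewhere. Other markers of neutrophils and fibroblasts were divided. Il1b was highest in these libraries too, whereas S100a8 and S100a9 were highest in vehicle 6, at 1012 and 1594 FPKM. Col3a1 was higher in GA 1 (37.2 FPKM) than in vehicle 4 (29.5 FPKM), and Dcn stood at 39.6 FPKM in vehicle 4 against 108 FPKM in GA 2. The part of these cells in the 3 slow troponins was not tested. The log2 fold changes were -0.40 (SE 0.66) for Tnnt1, -0.28 (SE 0.52) for Tnni1 and -0.46 (SE 0.91) for Tnnc1. Nebl, the nebulette of cardiac Z-discs, lay between 1.71 and 6.62 FPKM, with a log2 fold change of -0.22 (SE 0.32).

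Tnnc2, the fast troponin C, was nearly uncounted although its partners were abundant. It received between 0 and 5 reads in a library, at most 0.326 FPKM, in libraries where Tnni2 received 3795 to 34486 reads. The gene (chr2:164777161-164779967, minus strand, GRCm38) shares 74.0% of its exon bases with Ube2c on the opposite strand. Whether reads were counted by strand is not given in the sources used here, and the part of this overlap in the low count was not tested. The value is therefore no measure of fast troponin C in these tongues, and Tnnc2 was below the filter. Smaller overlaps with exons of the opposite strand were present for Mb (31.9% of exon bases), Atp2a1 (21.9%), Cmya5 (21.7%), Cacna1s (20.0%) and Ckm (15.5%), which remained abundant.

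The thick filament genes followed the same order, with abundant fast light chains and slow light chains at the limit of detection. Mylpf, the fast regulatory light chain, had levels of 201, 576 and 1280 FPKM with vehicle and 264, 941 and 1150 FPKM with GA, and a log2 fold change of 0.58 (SE 0.48). Myl1, the fast essential light chain, had levels of 101, 263 and 629 FPKM with vehicle and 118, 453 and 665 FPKM with GA. At a log2 fold change of 0.70 (SE 0.50) it was among the 5 members with the smallest p in the GA direction, yet its unadjusted p in the limma fit was 0.190 and its 2 ranges overlapped from 118 to 629 FPKM. Myl2 and Myl3, the slow and cardiac regulatory and essential light chains, received at most 8 and 5 reads in any library and were below the filter. Ttn (titin, the elastic protein spanning from Z-disc to M-line) and the M-line proteins Myom1 and Myom2 had log2 fold changes of 0.47 (SE 0.46), 0.61 (SE 0.53) and 0.37 (SE 0.50).

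The 2 genes of myosin binding protein C, which tethers myosin heads and tunes crossbridge cycling, diverged. Mybpc1, the slow type, had levels of 36.8, 97.7 and 222 FPKM with vehicle and 51.3, 155 and 215 FPKM with GA, a log2 fold change of 0.54 (SE 0.43). Mybpc2, the fast type, had levels of 0.921, 7.27 and 43.0 FPKM with vehicle and 0.539, 2.26 and 46.9 FPKM with GA, a log2 fold change of -0.98 (SE 1.11). Thus the type named slow exceeded the type named fast in all 12 libraries, unlike troponins I and T and the light chains. The 3 highest values of Mybpc2 were 43.0 FPKM in vehicle 3, 31.2 FPKM in vehicle 5 and 46.9 FPKM in GA 2, the 3 gland-bearing libraries, and the other 9 libraries lay between 0.539 and 11.0 FPKM.

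Among the Z-disc and desmin-associated genes, 10 of 11 were higher on average with GA and none passed the test. Smpx, a small muscle protein of the costamere, had levels of 12.6, 42.0 and 93.5 FPKM with vehicle and 19.5, 74.3 and 107 FPKM with GA. Its log2 fold change of 0.80 (SE 0.51) carried the smallest p in the GA direction, at 0.142 unadjusted in the limma fit. Xirp1, an actin-binding protein of intercalated discs and remodelling myofibrils, had levels of 1.46, 5.20 and 14.7 FPKM with vehicle and 4.60, 6.73 and 26.2 FPKM with GA, a log2 fold change of 0.74 (SE 0.52). Its GA mean rested in part on GA 2, where it stood at 26.2 FPKM while no other library exceeded 14.7 FPKM. Tcap (telethonin, the titin cap), Ldb3 (a PDZ and LIM protein of the Z-disc) and Des (desmin, the intermediate filament of muscle) had log2 fold changes of 0.70 (SE 0.56), 0.51 (SE 0.51) and 0.41 (SE 0.52).

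The alpha-actinins, which crosslink actin at the Z-disc, diverged as the binding proteins had. Actn2, present in all fibres, had levels of 18.3, 55.7 and 149 FPKM with vehicle and 29.3, 93.1 and 140 FPKM with GA, a log2 fold change of 0.61 (SE 0.48). Actn3, restricted to fast fibres, had levels of 0.912, 9.12 and 35.2 FPKM with vehicle and 1.09, 4.33 and 29.5 FPKM with GA, a log2 fold change of -0.92 (SE 0.86). Only GA 2 lay above the vehicle median of Actn3. Its highest values, 21.2, 35.2 and 29.5 FPKM, were again in vehicle 3, vehicle 5 and GA 2, and the other 9 libraries reached at most 9.74 FPKM. The myozenins, which link alpha-actinin to calcineurin, did not diverge in direction: Myoz1, of fast fibres, had a log2 fold change of 0.57 (SE 0.54), and Myoz2, of slow and cardiac fibres, 0.30 (SE 0.46). Myoz1 levels were 19.1, 60.7 and 182 FPKM with vehicle and 26.4, 107 and 132 FPKM with GA, while Myoz2 ranged from 1.76 to 11.5 FPKM over all libraries.

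In calcium handling, the pump of the fast type varied widely between libraries and the pump of the slow or general type did not. Atp2a1 (SERCA1, the pump of fast fibres) had levels of 149, 592 and 1501 FPKM with vehicle and 283, 983 and 1206 FPKM with GA, a log2 fold change of 0.63 (SE 0.52). Atp2a2 (SERCA2, used by slow fibres and, in its general form, by most other cells) had levels of 65.5, 73.7 and 92.0 FPKM with vehicle and 48.3, 55.7 and 102 FPKM with GA. Its highest and lowest libraries were 2.11-fold apart, the least of the members measured, whereas those of Atp2a1 were 10.1-fold apart. The log2 fold change of Atp2a2 was -0.27 (SE 0.17), with the smallest unadjusted p of all members (0.137, limma), and 5 of 6 GA libraries lay below the vehicle median, the exception being GA 2. Without GA 2, or without the 3 gland-bearing libraries, its unadjusted p was below 0.05 while its adjusted p was not below 0.1.

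Release and buffering genes were mostly higher with GA on average, by amounts within their errors. Sln (sarcolipin, a small peptide that inhibits SERCA) had levels of 51.8, 151 and 410 FPKM with vehicle and 65.4, 272 and 362 FPKM with GA, a log2 fold change of 0.70 (SE 0.55). Trdn (triadin, which holds calsequestrin to the ryanodine receptor) had levels of 4.17, 12.6 and 33.3 FPKM with vehicle and 6.83, 23.1 and 32.3 FPKM with GA, a log2 fold change of 0.68 (SE 0.49). The release channel Ryr1 and its voltage sensor Cacna1s had log2 fold changes of 0.45 (SE 0.45) and 0.51 (SE 0.51), and the junctophilins Jph1 and Jph2, which tie the T-tubule to the reticulum, 0.54 (SE 0.46) and 0.38 (SE 0.53). The calsequestrins, which store calcium in the reticulum, were nearly equal between the groups, at 0.12 (SE 0.48) for the fast Casq1 and 0.05 (SE 0.44) for the cardiac Casq2. Casq1 had levels of 12.3, 30.6 and 90.3 FPKM with vehicle and 12.8, 36.3 and 56.5 FPKM with GA, and Casq2 ranged from 4.29 to 43.7 FPKM over all libraries. Pvalb (parvalbumin, the cytosolic calcium buffer of fast fibres) had a log2 fold change of 0.02 (SE 0.80) and was highest in the gland-bearing libraries, at 62.8 FPKM or more against 45.9 FPKM or less. In all, 11 of 12 calcium handling genes had a higher mean log2 level with GA and none passed the test. Among these 11, mean FPKM was lower with GA for Pvalb (46.1 to 35.7), Casq2 (17.07 to 14.55) and Casq1 (37.7 to 37.2).

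The 3 genes of oxygen and phosphate supply were higher on average with GA. Mb (myoglobin) had levels of 173, 519 and 1502 FPKM with vehicle and 255, 861 and 1111 FPKM with GA, a log2 fold change of 0.61 (SE 0.51). Ckm, the cytosolic muscle creatine kinase, and Ckmt2, the mitochondrial form, had log2 fold changes of 0.59 (SE 0.55) and 0.72 (SE 0.63), and none of the 3 passed the test.

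Isoform ratios were next compared within libraries, which removes muscle content only where both genes of a pair follow it with the same slope. Atp2a2, Tnni1, Tnnt1, Actn3 and Mybpc2 did not follow the muscle index (r from -0.042 to 0.399), while their partners did. Ratios with these genes therefore still carry the muscle content of the library. So does Acta1 over Actc1, since both followed the index but with slopes of 1.08 and 2.09 log2 units per unit of index. The slopes were closer for Casq1 and Casq2 (1.01 and 0.77) and for Myoz1 and Myoz2 (1.20 and 0.94). On the log2 ratio scale the fast gene exceeded its slow partner in all 12 libraries for Tnni2 over Tnni1 (7.02 to 11.49), Tnnt3 over Tnnt1 (6.13 to 10.16), Myoz1 over Myoz2 (2.88 to 5.02), Atp2a1 over Atp2a2 (0.94 to 4.64) and Casq1 over Casq2 (0.07 to 1.75), as did Acta1 over Actc1 (4.13 to 7.86). The opposite order held in all 12 for Actn3 over Actn2 (-6.10 to -0.39) and Mybpc2 over Mybpc1 (-7.65 to -1.33). Ratios of Mylpf over Myl2 and of Tnnc2 over Tnnc1 are not described, because Myl2 and Tnnc2 were at or near 0 reads.

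**Figure D3:**
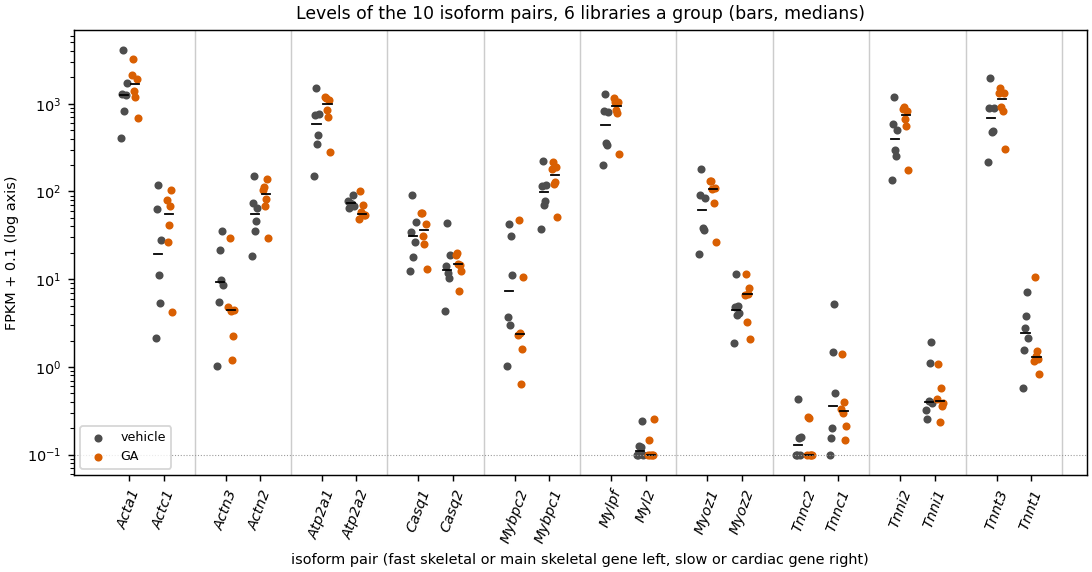
FPKM + 0.1 on a log axis of both genes of the 10 isoform pairs, 1 point a library, grey for vehicle and orange for GA, with bars at the medians of 6 libraries. Tnni2, Tnnt3 and Mylpf stand above 100 FPKM in every library, while Myl2 stands near the dotted line at 0 FPKM. Tnni1 reaches at most 1.85 FPKM and Tnnt1 at most 10.6 FPKM. Tnnc2 is also near the line, and Actn3 and Mybpc2 lie below their partners.

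None of the 10 ratios differed between GA and vehicle, by a two-sided exact permutation test over all assignments of the libraries to 2 groups of 6, which can reach 0.00216, with Benjamini-Hochberg adjustment over the 10 pairs. The smallest exact p was 0.117 (adjusted 0.571), for Actn3 over Actn2. This log2 ratio was -2.65 ± 1.37 (SD, n = 6) with vehicle and -4.18 ± 1.68 (SD, n = 6) with GA, a difference of -1.53 (SE 0.88). Mybpc2 over Mybpc1 differed by -1.52 (SE 1.15), from -3.64 ± 1.54 to -5.16 ± 2.36 (SD, n = 6 in each group). Atp2a1 over Atp2a2 differed by 0.89 (SE 0.59), from 2.80 ± 1.21 to 3.69 ± 0.80 (SD, n = 6 in each group). For the other pairs described, the difference was -0.76 (SE 0.80) for Acta1 over Actc1, 0.07 (SE 0.29) for Casq1 over Casq2, 0.28 (SE 0.35) for Myoz1 over Myoz2, 0.88 (SE 0.85) for Tnni2 over Tnni1 and 0.89 (SE 0.71) for Tnnt3 over Tnnt1.

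**Figure D4:**
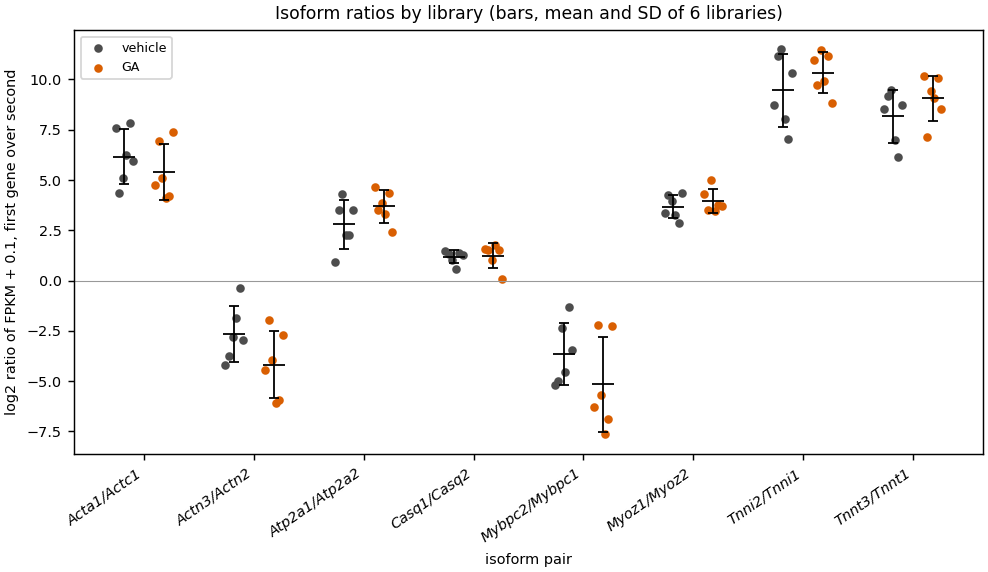
Log2 ratio of FPKM + 0.1 of the first gene over the second in each library, grey for vehicle and orange for GA, with mean and SD of 6 libraries. The 2 groups overlap for all 8 pairs shown, and the widest spread is that of Mybpc2 over Mybpc1, from -7.65 in GA 4 to -1.33 in vehicle 5.

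Whether the genes of a pair varied together over the 12 libraries was examined on the log2 level, with permutation p-values from 100000 resamples adjusted over 14 relations. The genes of 3 pairs did. Casq1 and Casq2 had a Pearson r of 0.844 (p = 0.00048, adjusted 0.00672) and a Spearman rho of 0.916 (adjusted 0.0021). Myoz1 and Myoz2 had r = 0.821 (p = 0.00106, adjusted 0.00742) and rho = 0.755 (adjusted 0.0346), and Acta1 and Actc1 r = 0.768 (p = 0.00294, adjusted 0.0137) and rho = 0.727 (adjusted 0.0346). Without the 2 libraries farthest from the median of the first gene, vehicle 1 with vehicle 3 or with GA 6, r was 0.679, 0.604 and 0.565. Within vehicle these r were 0.955, 0.873 and 0.858, and within GA 0.643, 0.775 and 0.576. They were 0.739, 0.817 and 0.919 over the 9 libraries without gland tissue, and 0.621, 0.672 and 0.523 over the 7 libraries without Y-linked reads.

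For the other pairs the 2 isoforms did not pass that test, and r was -0.135 for Atp2a1 with Atp2a2, 0.278 for Actn3 with Actn2, 0.263 for Mybpc2 with Mybpc1, 0.362 for Tnnt3 with Tnnt1 and -0.153 for Tnni2 with Tnni1 (adjusted permutation p from 0.492 to 0.772).

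To describe the muscle content of a library without the members, a muscle index was taken as the mean log2 level of 30 other sarcomere and excitation-contraction genes. It formed a continuum from 1.94 in vehicle 1 to 4.71 in vehicle 3, and lay between 2.55 (GA 6) and 4.44 (GA 2) in the GA libraries. Of the 44 members, 30 followed it with r above 0.9 and 22 with r above 0.95, and 37 had an adjusted permutation p below 0.05 over the 44. Mybpc1 followed it most closely (r = 0.990, rho = 0.972), then Atp2a1 (r = 0.988, rho = 0.930), Ryr1 (r = 0.987, rho = 0.958) and Tnnt3 (r = 0.987, rho = 0.951), each with an adjusted p of 2e-05, set by the smallest p that the resamples allow. Without the 2 libraries farthest from the median index, r was above 0.9 for 23 members. It was above 0.9 for 34 within vehicle, 30 within GA, 32 without the gland-bearing libraries and 23 without the libraries with Y-linked reads. The points share library and depth, and the index genes are of the same tissue as the members.

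**Figure D5:**
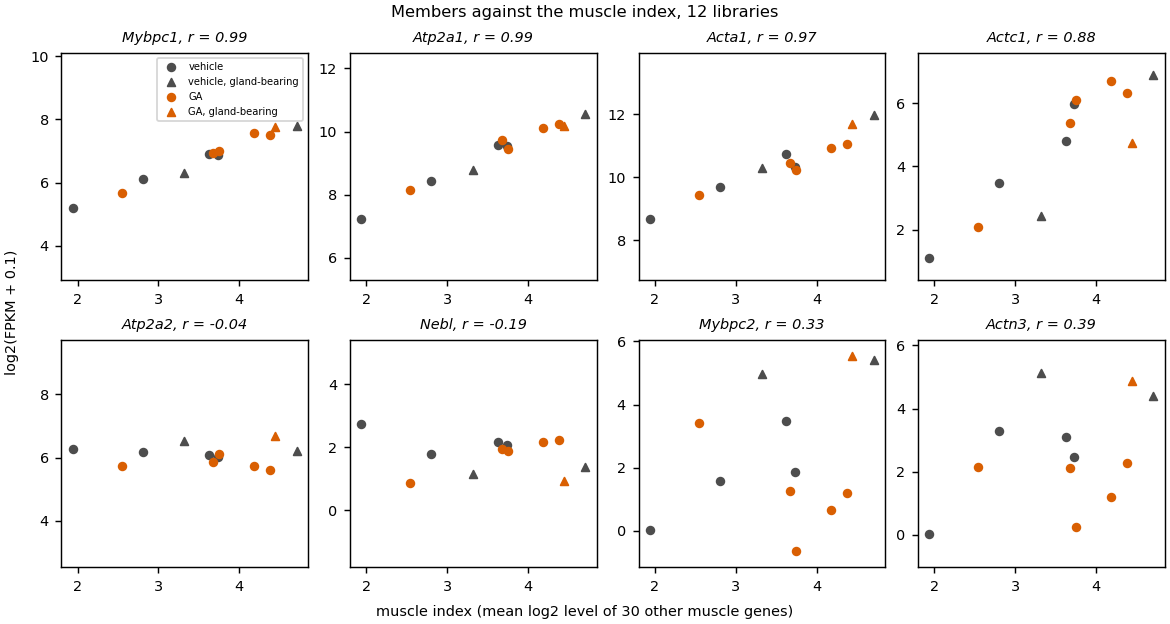
Log2(FPKM + 0.1) of 8 members against the muscle index in the 12 libraries, grey for vehicle, orange for GA and triangles for the 3 gland-bearing libraries, on y axes of equal span. Mybpc1, Atp2a1 and Acta1 rise along the index, Atp2a2 and Nebl stay level, and Mybpc2 and Actn3 are highest in the triangles.

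The 7 members without this relation were Tnnt1 (r = 0.399), Actn3 (0.394), Mybpc2 (0.326), Tnnc1 (0.061), Tnni1 (-0.001), Atp2a2 (-0.042) and Nebl (-0.187), with adjusted permutation p from 0.230 to 0.997. They include the 3 slow troponins, both of the members reported above as lower by more than 0.58 with GA, and the SERCA pump that other cells use. These were also the 7 members with a lower mean with GA. Actc1 followed the index (r = 0.883) with a slope of 2.09 log2 units per unit of index, against slopes between 0.76 and 1.24 for the 30 members with r above 0.9. Expressed relative to the index, Mybpc2 was 3.13 log2 units higher on average in the 3 gland-bearing libraries than in the other 9, Actn3 2.18, Pvalb 1.56 and Tnnt1 1.36. Nebl was 1.59 lower, but it did not follow the index, so its relative value falls as the index rises. Its FPKM levels overlapped. The relative values of Mybpc2, Actn3 and Tnnt1 overlapped too. Those of Pvalb and Nebl did not, nor did those of Des, which was 0.66 log2 units higher on average in the gland-bearing libraries. The FPKM levels of Des overlapped. Tnnt1 was at -3.24 in vehicle 3, and at -0.89 in vehicle 4, which held no gland tissue. Actn3 was at 0.49 in vehicle 4 and at 0.44 in GA 2. GA 6, which held no gland tissue, was also high in Mybpc2 relative to the index, at 0.87 against 0.72 in vehicle 3. The part of gland tissue in these values was not tested.

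When the muscle index was added to the model as a term, the shared direction was no longer seen. The median log2 fold change of the 44 members was then -0.03, with 19 higher and 25 lower, and no member passed the adjusted threshold. Casq1 was the only member at an unadjusted p below 0.05 in that fit, with a log2 fold change of -0.40 (SE 0.12, unadjusted p = 0.00741, adjusted p = 0.9998 in limma). Actn3 and Mybpc2 stood at -1.43 (SE 0.80) and -1.51 (SE 1.10), and Smpx at 0.27 (SE 0.19). Of the 30 index genes, 28 were themselves higher on average with GA. The term therefore takes out any shift that they share with the members, whatever its origin. This fit cannot tell muscle content from a change of muscle transcripts with GA.

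Most other skeletal muscle genes examined shifted in the same direction as the members. Of the 30 other sarcomere and excitation-contraction genes, 28 were higher on average with GA and 2 lower (median log2 fold change 0.50). Among them were Synpo2, a Z-disc protein (0.57, SE 0.40), Srl, the calcium-binding sarcalumenin (0.67, SE 0.49), and Csrp3, a muscle LIM protein (0.85, SE 0.64). These 30 genes form the muscle index that most members follow, so their direction is not a separate observation. All 14 muscle energy genes were higher on average (median 0.58), for example the muscle cytochrome oxidase subunit Cox8b (0.68, SE 0.51), as were all 12 muscle transcription factors (median 0.35), for example Myf6 (0.69, SE 0.51). Genes of immature or denervated muscle were divided, 7 higher and 6 lower. Cardiac muscle markers were divided too, 3 higher and 3 lower, and of the smooth muscle markers 5 were higher and 3 lower. Epithelium markers were lower on average for 11 of 12 (median -0.19), and neutrophil markers for 10 of 10 (median -0.75). Fibroblast markers were lower for 7 of 8, gland markers for 6 of 6 and adipocyte markers for 5 of 6. A shift to higher levels was not particular to muscle. Schwann and nerve markers were higher for 7 of 7 (median 0.56), as were endothelium markers for 7 of 7 (median 0.11). None of the genes of these lists passed the adjusted threshold or an unadjusted p of 0.05 in limma.

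Summed levels of the lists show what else moved with the members. The members summed to 2203 FPKM in vehicle 1 and 18342 FPKM in vehicle 3, while the 12 epithelium markers summed to 50094 FPKM in vehicle 1 and 22371 FPKM in vehicle 3. Over the 12 libraries Acta1 had r = -0.761 with the epithelium sum (permutation p = 0.00471, adjusted 0.0165; rho = -0.727, adjusted 0.0346) and -0.519 without vehicle 1 and vehicle 3. Within vehicle this r was -0.662 and within GA -0.933. Libraries with more Acta1 thus tended to have a lower epithelium sum, though not throughout. Vehicle 6 exceeded vehicle 4 in both the member sum (8533 against 4429 FPKM) and the epithelium sum (42520 against 26552 FPKM). FPKM are relative to the depth of a library, so abundant lists can lower each other's values, and the part of this was not tested. The part of epithelial content in the differences between GA and vehicle was not tested either. With the fibroblast, smooth muscle and neutrophil sums the r of Acta1 was 0.601, 0.118 and -0.179, and none passed (adjusted permutation p 0.109, 0.772 and 0.772).

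The genes whose pattern over the libraries was most like that of the members were picked by Pearson r with the mean of the 44 standardised log2 levels, out of 12118 other genes averaging 1 FPKM or more. They were Trim72 (r = 0.994), Bin1 (0.994), Asb11 (0.993), Hjv (0.992), Fbxo40 (0.992), Adss1 (0.991), Jsrp1 (0.989), Eef1a2 (0.989), Sptb (0.989) and Scn4a (0.986). Those least like it were Pdcd6ip (-0.987), Bnip3l (-0.974), Arhgef5 (-0.963), Ly6m (-0.961) and Ereg (-0.961). These r describe 12 libraries, with no test.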

How the data were processed

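Total RNA from the tongues of 12 mice (6 GA, 6 vehicle) was sequenced after SMARTer library preparation. Per the labels and the study's methods, the authors used HISAT2 for alignment (mm10) and featureCounts for gene-level quantification of reads with a unique position, and deposited FPKM values, 1 file a library, with 55463 genes each, of which 22965 carry no name and were not used as genes (16.2% to 25.5% of the summed FPKM). Groups were taken from the treatment label. The labels do not say whether each library is a separate mouse, so p-values measure the spread between these samples.

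As counts were not used here, the authors' edgeR test was replaced. The FPKM were scaled between libraries by trimmed means (30% of ratios and 5% of levels trimmed, factors 0.906 to 1.081), transformed as log2(FPKM + 0.1), filtered at a mean of 0.1 FPKM and tested with limma 3.58.1 (trend, R 4.3.3) with Benjamini-Hochberg adjustment over 16847 genes. A log2 fold change is on the scale of log2(FPKM + 0.1), which understates the change of low genes. Isoform ratios were tested by exact permutation, and correlations with 100000 resamples (Python 3.11.15, numpy 2.4.6, pandas 2.3.3). Whole reads were recovered from the FPKM with GENCODE exon lengths less a constant, which was 16.9 to 24.3 bases. With it, 97.8% to 98.3% of low values, of 1 to 8 reads, lay within 0.02 of a whole number. The constant was chosen for each library to make this share as large as possible, so the share is not a separate check. Limma-voom on these reads was an alternative. The limma script was tested on simulated data.

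The members and the lists were chosen with earlier results of these data known. Genes given with values were both genes of each isoform pair, the 5 members of highest mean, the 5 of smallest p in each direction and those below the filter; further members are named as examples of their role, after their values were seen. Same-numbered GA and vehicle libraries shared only a number (correlation of their deviations from -0.37 to 0.08, and 0 of 6 pairs over 0.1). Promoter windows are from RefSeq, and gene positions from GENCODE (GRCm38). The relation of Acta1 with gland markers is not given because the libraries fall into separate clusters. Other settings were another pseudocount, filter or scaling, terms for sex and muscle, a replicate block, and leaving out libraries.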

Additional observations from a re-analysis of the deposited data

Results flagged for a closer look

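GA 6 lay apart from the other GA libraries, on the low side, for 13 members. The gap from GA 6 to the next library, as a share of the whole range of the 6 log2 levels, was 0.667 for Ckmt2, 0.710 for Mb, 0.737 for Mylpf, 0.709 for Myl1, 0.626 for Tnnt3, 0.70 for Tnni2, 0.696 for Myom1, 0.641 for Myoz1, 0.690 for Tcap, 0.628 for Atp2a1, 0.626 for Jph1, 0.684 for Jph2 and 0.753 for Smpx, each above Dixon's critical value for 6 samples. These members vary together, so that they amount to the single fact that GA 6 held the least muscle transcript of the GA libraries (muscle index 2.55, against 3.68 or more in the others). The log2 ratio of Mylpf over Myl2 was also lowest in GA 6 (share 0.812), where Myl2 received 8 reads.

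Tnnt1, the slow troponin T, was apart on the high side in GA 2 (share 0.757), at 10.6 FPKM against at most 1.44 FPKM in the other GA libraries. Of 108 groups of values examined, 15 (13.9%) exceeded the critical value, where chance gives about 1 in 20.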

How the results depend on the processing

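No member passed the adjusted threshold under any alternative run, voom on recovered reads included, and no isoform ratio passed its exact test after adjustment. The smallest unadjusted exact p of a ratio was 0.0476, without GA 2, where the smallest adjusted p was 0.310. For single genes and ratios, 698 recomputed values kept their direction and their side of the threshold, and 20 turned. The count of members at an unadjusted p below 0.05 was 0, but 1 without the 3 gland-bearing libraries (Atp2a2), 1 with the muscle term (Casq1), and 0 to 3 on leaving out single libraries: 3 without GA 6 (Tcap, Smpx, Myl1), 2 without vehicle 3 (Tpm2, Xirp1) and 1 without GA 2 (Atp2a2). Over all genes the count at that p was 371, against 791 without vehicle 3, 840 without GA 6 and 567 with no filter on low values, and only the fit without vehicle 4 called a gene (1).

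The muscle term turned the log2 fold changes of Acta1 (-0.18), Casq1 (-0.40), Casq2 (-0.35), Myoz2 (-0.16) and Tnnt3 (-0.063), and a sex term that of Nebl (0.015). Leaving out single libraries gave ranges that crossed 0 for Casq1 (-0.14 to 0.43), Casq2 (-0.28 to 0.39), Tnnc1 (-0.91 to 0.23), Tnni1 (-0.53 to 0.089), and for the ratios Casq1 over Casq2 (-0.047 to 0.31) and Tnnc2 over Tnnc1 (-0.44 to 0.92; -0.30 with a pseudocount of 0.01). The causes were not tested. With the replicate block, 250 genes were at an unadjusted p below 0.05, the smallest exact p of a ratio was 0.281 and no call of a member was changed. No library correlated best with its own number, so the block is not a paired design.

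The slow light chains and both troponins C received at most 116 reads in any library, which limits the precision of their values, while Tnni2 received at least 3795.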
